A study of Mus musculus with 6 samples.

Results

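The barcodes described here are the shallow ones of the tumor libraries. A barcode marks 1 droplet, and each UMI (unique molecular identifier) counted under it stands for 1 captured RNA molecule. A tumor barcode belonged to the set when it held 200 to 6000 detected genes, at most 3% of UMIs from mitochondrial genes, UMIs of all 3 T cell genes Cd2, Cd8a and Cd8b1 (1 or more of each), and fewer than 2000 UMIs in total. There were 1475 such barcodes among 15744 tumor barcodes that met the same conditions at any depth, and among 47860 barcodes in the 4 RNA libraries. The control tumor gave 808 of them and the CD8-IFNγRKO tumor 667. Since UMI totals, detected genes, mitochondrial share and these 3 T cell genes chose the barcodes, their values are given as a description only.

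CD8 T cells were sorted on CD45, CD3, CD8 and Tomato 12 days after C57Bl6 mice had been engrafted with B16-OVA, a mouse melanoma line that makes ovalbumin. Control mice carried CD8-Cre and the Rosa26Tomato reporter; CD8-IFNγRKO mice carried both of these and IFNgR1flox/flox, so that Cre made in CD8 lineage cells deletes the gene of the IFNγ receptor 1 chain there, and no age was given in the labels. Cells of 3 mice per genotype made 1 tumor and 1 draining lymph node (LN) library by the 5′ droplet method, and the T cell receptor (TCR) chains of the 2 tumor libraries were sequenced as well. With 1 library per genotype and tissue there is no replicate and no test: all intervals below are 95% intervals of counting error only, and p-values are not given.

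Messenger RNA of the ribosomal proteins and of the respiratory chain is found mainly in the cytoplasm. Malat1 and related long RNAs stay in the nucleus. Replication-dependent histone genes are transcribed as cells copy their DNA, and most of their transcripts end in a stem-loop in place of a poly(A) tail. Mature T cells of a clone share their rearranged TCR alpha (TRA) and beta (TRB) chains, so the pair found in a barcode was used to name its clone.

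For the control tumor 11369 barcodes with 66786816 UMIs were deposited, and for the CD8-IFNγRKO tumor 12214 barcodes with 104973053 UMIs. No barcode of either library held fewer than 500 UMIs. Shallow barcodes made up 11.4% (10.6 to 12.1) of the barcodes that met all other conditions in the control tumor and 7.72% (7.17 to 8.30) in the CD8-IFNγRKO tumor. They carried 897971 UMIs in the control tumor, with a median of 1017 per barcode (quartiles 836 and 1332), and 1060731 UMIs in the CD8-IFNγRKO tumor, with a median of 1657 (1426 and 1826). The 6298 and 7971 deeper cells, of 2000 or more UMIs, had medians of 7012.5 and 10114.

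**Figure D1:**
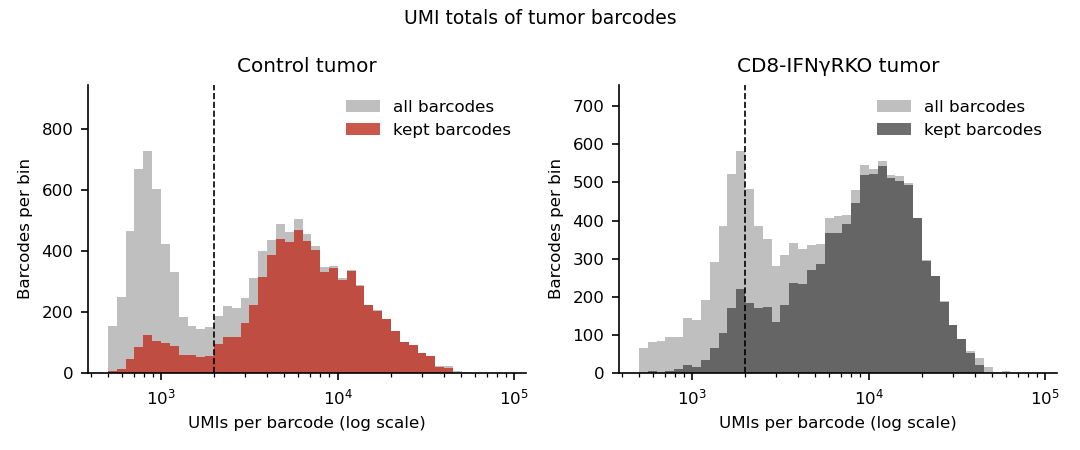
Number of barcodes per bin of UMI total (log scale), for all barcodes and for those that met every condition on genes, mitochondrial share and Cd2, Cd8a and Cd8b1. The dashed line is the limit of 2000 UMIs: the shallow mode of the control tumor lies below it, at 750 to 999 UMIs, while that of the CD8-IFNγRKO tumor reaches up to it and past it.

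Both libraries had a shallow mode apart from the main body of cells, but not at the same depth. In the control tumor, 1696 of all barcodes held 750 to 999 UMIs, against 171 at 1750 to 1999 UMIs and 191 at 2000 to 2249 UMIs. The CD8-IFNγRKO tumor had 666 barcodes at 1500 to 1749 UMIs, 665 at 1750 to 1999 UMIs and 482 at 2000 to 2249 UMIs, so the limit cut through this mode. Most barcodes below 2000 UMIs lacked at least 1 of Cd2, Cd8a and Cd8b1: 80.8% of the 4264 in the control tumor did, and 74.4% of 2691 in the CD8-IFNγRKO tumor, against 10.9% and 15.3% of barcodes at or above the limit. Of the deeper cells, which all held the 3 genes, 30.2% and 35.7% still did once they had been thinned to totals of the shallow barcodes.

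Thinning means that each deeper cell was cut, by random draw of its UMIs without replacement, to a total taken from the shallow barcodes of its own library. Sums over these thinned cells and over the shallow barcodes were set side by side as CPM, the UMIs of a gene or list scaled to a total of 1000000 UMIs over all genes; log2 ratios of single genes and lists were taken after 1 CPM had been added. At matched depth the shallow barcodes held more replication-dependent histone RNA, more nuclear-retained RNA and more RNA assigned to ribosomal RNA repeats, and less ribosomal protein mRNA, in both genotypes. Summed levels of cytotoxic, exhaustion and mitochondrial genes lay close to those of the thinned cells.

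**Figure D2:**
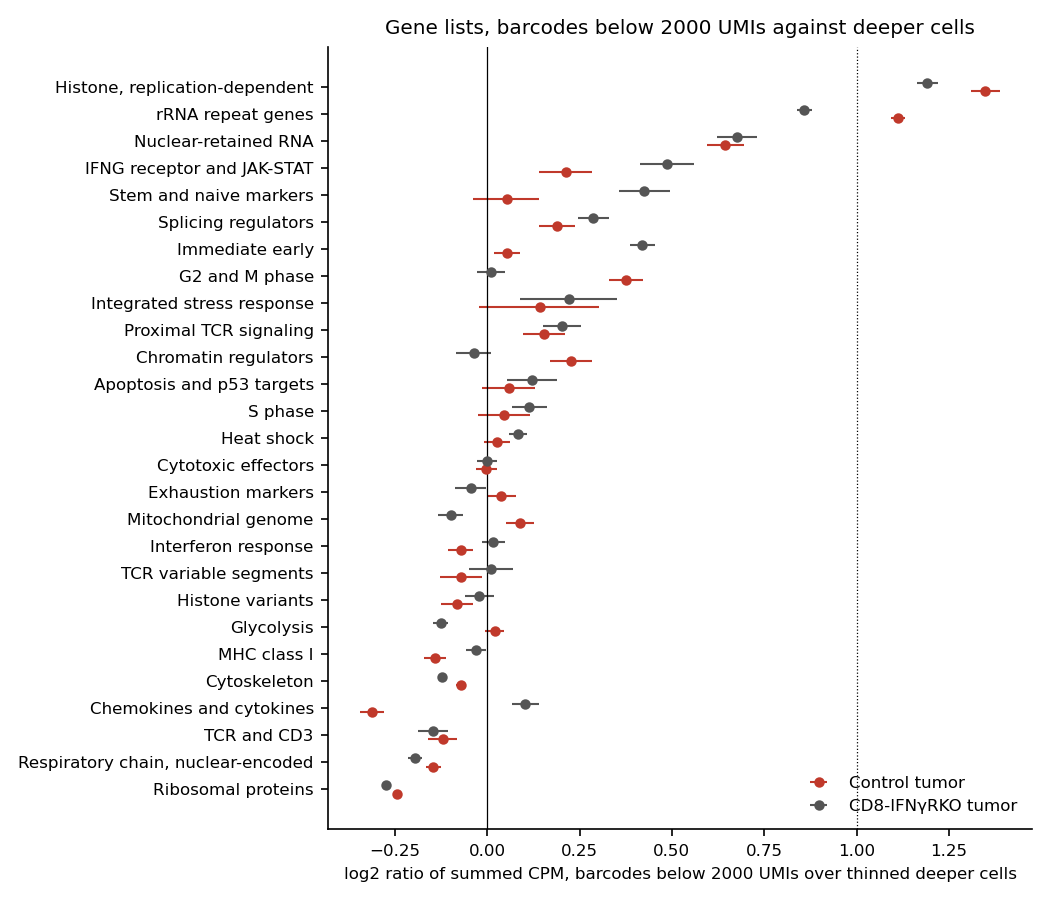
log2 ratio of the summed CPM of each gene list other than the markers of cell types, shallow barcodes over thinned deeper cells, in the control and the CD8-IFNγRKO tumor; bars are 95% intervals of counting error, the solid line marks equality and the dotted line a ratio of 2. Replication-dependent histones stood farthest to the right at 1.35 and 1.19, and ribosomal proteins were the lowest list plotted by the mean of both libraries, at -0.25 and -0.27.

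The 67 replication-dependent histone genes encode the core histones H2A, H2B, H3 and H4 and the linker histone H1. Of these, 66 were matched to RefSeq genes of GRCm38.p6, 53 of them on chromosome 13 between positions 21715711 and 23934913 and 10 on chromosome 3 between positions 96219885 and 96270192. Their summed level was 7692 CPM in the shallow barcodes of the control tumor against 3019 CPM in its thinned cells, a log2 ratio of 1.35 (1.31 to 1.39). The CD8-IFNγRKO tumor had 10955 against 4795 CPM, a log2 ratio of 1.19 (1.16 to 1.22). The size depended on the cells compared: with a limit of 3000 UMIs the log2 ratios were 0.64 in the control and 0.83 in the CD8-IFNγRKO tumor, and against deeper cells of 2000 to 6000 UMIs alone they were 2.16 and 1.46. All 34 histone genes abundant enough to compare (at least 50 CPM on either side and 100 UMIs in all) were higher in the control tumor, 31 of them at least 2-fold, and 39 of 42 were higher in the CD8-IFNγRKO tumor, 37 of them at least 2-fold. Over all genes compared, 61% were higher in the control and 61.8% in the CD8-IFNγRKO tumor, by any amount. At least 2-fold higher were 1.22% of 3291 in the control tumor and 1.41% of 3345 in the CD8-IFNγRKO tumor, and 0% were at least 2-fold lower in either. The median log2 ratio of the compared histone genes was 1.69 in the control and 1.68 in the CD8-IFNγRKO tumor, beside 0.08 over all genes compared in each library. A gene could pass the filter through its level in the shallow barcodes alone, as Hist2h4 did with 17.6 CPM in control thinned cells. The gene counts and medians are shaped by this filter, whereas the summed level takes in all 67 genes.

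All 5 histone classes were higher in the shallow barcodes. H1 genes, whose products bind linker DNA, summed to 3234 CPM in control shallow barcodes and 1043 CPM in thinned cells, a log2 ratio of 1.63 (1.57 to 1.70), and to 1.38 (1.33 to 1.43) on the same scale in the CD8-IFNγRKO tumor. H3 gave log2 ratios of 1.70 and 1.83 in the control and CD8-IFNγRKO tumors, H4 1.70 and 1.74, and H2B 1.42 and 1.55. H2A gave the lowest ratios, 0.88 and 0.59, although the median over its single genes was 1.68 and 1.58.

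Among single genes, Hist2h4 (an H4 gene, chromosome 3, positions 96262934 to 96263317) was at 117 CPM in control shallow barcodes and 17.6 CPM in thinned cells, a log2 ratio of 2.67 (2.34 to 3.12). CD8-IFNγRKO barcodes held 181 and 25.5 CPM of it, a log2 ratio of 2.78 (2.56 to 3.09). Hist1h2af, an H2A gene, had log2 ratios of 2.73 and 2.24, and the H1 gene Hist1h1d, at 565 and 794 CPM in shallow barcodes, had log2 ratios of 2.09 and 1.71. The 12 genes with the highest mean log2 ratio that were allowed by the naming rule were all replication-dependent histones, with means from 1.82 to 2.72. This ranking too holds genes that passed the filter only through their level in the shallow barcodes. Histone genes are near-identical copies that share reads, so the level of any 1 of them is uncertain and the sum is firmer.

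Histone variant genes are expressed outside S phase too, mostly as polyadenylated mRNA. As a sum they stood close to the thinned cells, at 5273 against 5582 CPM in the control tumor (log2 ratio -0.08, -0.13 to -0.04) and 5391 against 5471 CPM in the CD8-IFNγRKO tumor (-0.02, -0.06 to 0.02). H2afz, the H2A.Z variant, was at 687 and 749 CPM in control shallow and thinned barcodes. H3f3b, an H3.3 gene, was at 2966 and 3191 CPM. H2afx was higher in both tumors, with log2 ratios of 0.53 (0.31 to 0.75) in the control and 0.26 (0.07 to 0.44) in CD8-IFNγRKO. H1f0 had 0.21 (-0.12 to 0.52) and 0.45 (0.19 to 0.71). Of the 8 variant genes compared, 6 were lower in the control and 5 in the CD8-IFNγRKO tumor, beside 39% and 38.2% of all genes compared.

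**Figure D3:**
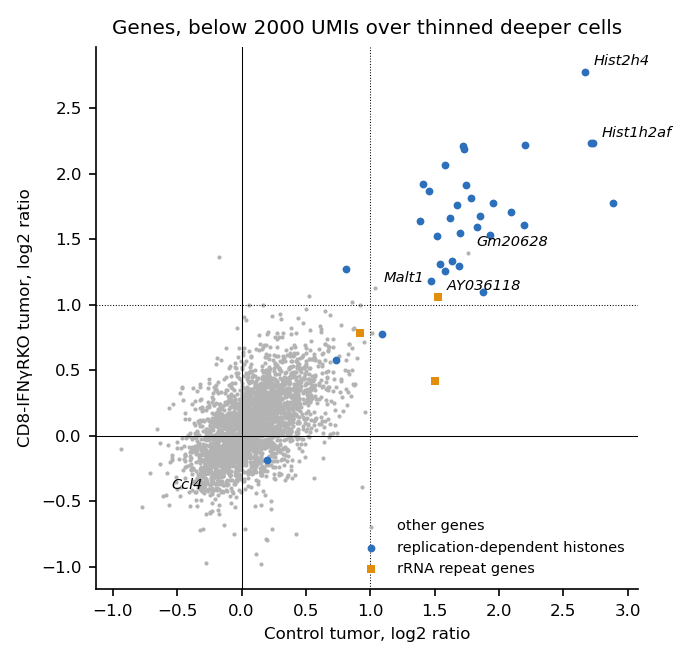
log2 ratio of each gene compared in both libraries (3041 genes), shallow barcodes over thinned deeper cells, control tumor on the x axis and CD8-IFNγRKO tumor on the y axis; dotted lines mark a ratio of 2. Histone genes occupy the upper right corner, with 32 genes (1.05%) at or past a ratio of 2 in both libraries.

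S phase genes differed less than the histones. The 43 genes of the S phase list, such as DNA replication factors, summed to 2045 CPM in control shallow barcodes and 1980 CPM in thinned cells, a log2 ratio of 0.05 (-0.02 to 0.12), and to 3645 and 3367 CPM in the CD8-IFNγRKO tumor, a log2 ratio of 0.11 (0.07 to 0.16). Among the 118 control shallow barcodes without any S phase UMI, histones were at 4788 CPM (4402 to 5199), against 1007 CPM (962 to 1055) in 1818 thinned cells without one, a log2 ratio of 2.25. With 2 or more S phase UMIs the levels were 9013 and 4963 CPM, a log2 ratio of 0.86. The CD8-IFNγRKO tumor had the opposite order, with log2 ratios of 0.41 (0.11 to 0.69) in the 39 shallow barcodes without an S phase UMI and 1.09 (1.06 to 1.12) in the 571 with 2 or more. G2 and M phase genes, which serve mitosis, were higher in the control shallow barcodes (4845 against 3734 CPM, log2 ratio 0.38, 0.33 to 0.42) and level in the CD8-IFNγRKO ones (5622 against 5579 CPM, 0.01, -0.03 to 0.05).

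Across the full range of depth the histone level did not follow the UMI total steadily. In the control tumor it lay between 6442 and 8408 CPM in the 4 bins below 2000 UMIs, was 2255 CPM at 2000 to 2999 UMIs and 1567 CPM at 3000 to 4999 UMIs, and stood again at 5271 CPM in cells of 10000 or more UMIs. For the CD8-IFNγRKO tumor it was 12006 CPM at 1000 to 1499 UMIs, 6302 CPM at 2000 to 2999 UMIs, 3010 CPM at 3000 to 4999 UMIs and 5820 CPM at 10000 or more UMIs. Close to the limit, the 65 control barcodes of 1750 to 1999 UMIs were at 6290 CPM and the 99 barcodes of 2000 to 2249 UMIs at 2764 CPM. Where the shallow mode reaches past the limit, in the CD8-IFNγRKO tumor, the same steps held 10690 CPM in 251 barcodes and 9052 CPM in 185.

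**Figure D4:**
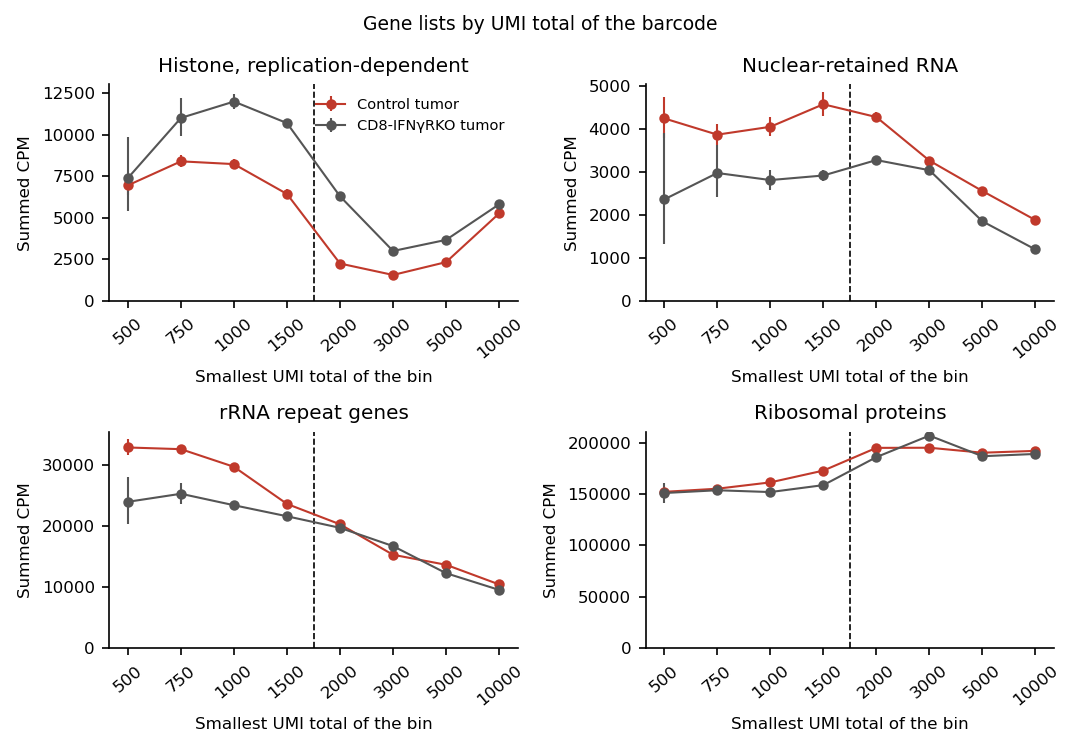
Summed CPM of 4 gene lists in bins of the UMI total of the barcode, without thinning; each bin is named by its smallest total, bars are 95% intervals of counting error and the dashed line is the limit of 2000 UMIs. Histone RNA drops just past the limit and is higher again in the deepest cells, nuclear-retained RNA and rRNA repeat genes decline towards the deepest cells, and ribosomal protein mRNA is lowest in the shallow bins.

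The 10 genes of nuclear-retained RNA summed to 4160 CPM in control shallow barcodes and 2660 CPM in thinned cells, a log2 ratio of 0.65 (0.59 to 0.70), and to 2896 and 1812 CPM in the CD8-IFNγRKO tumor, a log2 ratio of 0.68 (0.62 to 0.73). Malat1, a long RNA of nuclear speckles, made up nearly all of this, at 4021 against 2560 CPM in the control and 2763 against 1699 CPM in the CD8-IFNγRKO tumor. Neat1, the scaffold RNA of paraspeckles, was at 36.8 against 28.6 CPM and at 56.6 against 32.3 CPM, the first with an interval that includes equality. Values of nuclear-retained RNA on both sides of the limit were close: control barcodes of 1750 to 1999 UMIs held 4842 CPM and those of 2000 to 2249 UMIs 4404 CPM, and in the CD8-IFNγRKO tumor the values were 2867 and 2872 CPM. Against deeper cells of 2000 to 6000 UMIs alone, the CD8-IFNγRKO log2 ratio was -0.04.

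Genes annotated over ribosomal RNA repeats were higher in the shallow barcodes too. Gm42418, AY036118 and Gm26917 summed to 29043 CPM in control shallow barcodes and 13434 CPM in thinned cells, a log2 ratio of 1.11 (1.09 to 1.13), and to 22064 and 12170 CPM in the CD8-IFNγRKO tumor, a log2 ratio of 0.86 (0.84 to 0.88). AY036118 had the log2 ratios 1.53 and 1.06. Reads of these genes can stem from ribosomal RNA itself, so they are uncertain as gene expression. Their sum was 32823 CPM in the shallowest control bin and 10435 CPM in the deepest, lower at every step between. Near the limit the values were close, at 21874 CPM in control barcodes of 1750 to 1999 UMIs and 22288 CPM at 2000 to 2249 UMIs, and at 21020 and 21328 CPM in the CD8-IFNγRKO tumor. Against deeper cells of 2000 to 6000 UMIs alone, the log2 ratios were 0.86 in the control and 0.36 in the CD8-IFNγRKO tumor. Lars2, a mitochondrial leucyl-tRNA synthetase gene, was at 1189 against 666 CPM and at 875 against 538 CPM.

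Outside the histones, 9 genes were at least 2-fold higher in the control tumor and 10 in the CD8-IFNγRKO tumor, and 3 of these were shared: AY036118, Gm20628 and Malt1. They were chosen for naming after their values had been seen. Malt1 encodes a protease and scaffold that carries antigen receptor signals to NF-κB; it was at 215 CPM in control shallow barcodes and 104 CPM in thinned cells (log2 ratio 1.04, 0.81 to 1.27) and at 179 and 81.6 CPM in the CD8-IFNγRKO tumor (1.13, 0.90 to 1.36). Clk1, a kinase of splicing factors, had log2 ratios of 0.84 and 0.70, and splicing regulators as a list 0.19 (0.14 to 0.24) and 0.29 (0.25 to 0.33), with 11 of 14 and 15 of 16 genes higher, beside 61% and 61.8% of all genes compared. Of all genes, 46.9% of the 3041 genes compared in both were higher in both libraries.

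Ribosomal protein mRNA was lower in the shallow barcodes of both tumors. It took 162111 CPM of the control shallow barcodes and 192148 CPM of thinned cells, a log2 ratio of -0.25 (-0.25 to -0.24), and 157195 against 189979 CPM in the CD8-IFNγRKO tumor, a log2 ratio of -0.27 (-0.28 to -0.27). All 79 ribosomal protein genes compared were lower in each library, where 39% of all genes compared were lower in the control and 38.2% in the CD8-IFNγRKO tumor, and 27.1% of those compared in both were lower in both. Nuclear genes of the respiratory chain were lower for 61 of 76 genes in the control (summed log2 ratio -0.15, -0.17 to -0.13) and for 68 of 77 in the CD8-IFNγRKO tumor (-0.20, -0.21 to -0.18). Among the 12 lowest genes allowed by the naming rule were Qdpr, a dihydropteridine reductase gene, with log2 ratios of -0.77 and -0.54, Ifitm3, an interferon-induced membrane protein gene, with -0.27 and -0.97, and Ccl4, a chemokine gene, with -0.61 and -0.46. The other 9 had mean log2 ratios between -0.55 and -0.45.

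Mitochondrial content, capped by the rule at 3%, lay closer together. The median share was 0.627% of UMIs in control shallow barcodes and 0.632% in deeper cells, and 0.675% and 0.726% in the CD8-IFNγRKO tumor. Among the 13 protein-coding mitochondrial genes, mt-Cytb, a subunit of complex III, was higher in the shallow barcodes (1045 against 516 CPM, and 1053 against 610 CPM), while mt-Co3, a subunit of cytochrome c oxidase, was lower (361 against 446 CPM, and 382 against 511 CPM). Had the cap been left out, 11 of 819 control barcodes (1.34%, 0.67 to 2.39) and 21 of 688 CD8-IFNγRKO barcodes (3.05%, 1.90 to 4.63) below 2000 UMIs would have exceeded 3%, against 0.190% and 0.561% of deeper ones.

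As summed lists, markers of CD8 T cells, cytotoxic effectors and exhaustion markers were at about the level of the thinned deeper cells in the shallow barcodes. Since the rule requires Cd2, Cd8a and Cd8b1, only the other 10 CD8 T cell markers bear on the label. All 10 had UMIs in both libraries, and their sum was 9334 against 9691 CPM in the control (log2 ratio -0.05, -0.09 to -0.02) and 7549 against 7930 CPM in the CD8-IFNγRKO tumor (-0.07, -0.10 to -0.04). Cd3e, a chain of the CD3 complex and 1 of these 10, was at 1738 CPM in control shallow barcodes and 1821 CPM in thinned cells, and at 1326 and 1350 CPM in the CD8-IFNγRKO tumor. The TCR constant regions and CD3 chains together were slightly lower, with log2 ratios of -0.12 (-0.16 to -0.08) and -0.15 (-0.19 to -0.11). Cytotoxic effector genes had a log2 ratio of 0.00 in both libraries, from 11614 against 11630 CPM in the control and 11222 against 11229 CPM in the CD8-IFNγRKO tumor. Gzmb, the granzyme B gene, was at 3194 against 3102 CPM and at 4387 against 4288 CPM. Other members went both ways, with log2 ratios of 0.57 and -0.32 for Gzmc, -0.63 and -0.22 for Gzmf, and 0.17 and 0.70 for Fasl. Of the effector genes compared, 10 of 14 and 7 of 12 were higher, beside 61% and 61.8% of all genes. Exhaustion markers had log2 ratios of 0.04 and -0.04; Pdcd1, which encodes PD-1, was at 808 against 848 CPM and at 684 against 620 CPM. Apoptosis and p53 target genes had log2 ratios of 0.06 (-0.01 to 0.13) and 0.12 (0.05 to 0.19), and heat shock genes 0.03 and 0.08. Genes of the interferon response had -0.07 and 0.02, MHC class I genes -0.14 and -0.03, glycolysis genes 0.02 and -0.13, cytoskeleton genes -0.07 and -0.12, TCR variable segments -0.07 and 0.01, chromatin regulators 0.23 and -0.04, the integrated stress response 0.14 and 0.22, and proximal TCR signaling 0.15 and 0.20. The IFNγ receptor and JAK-STAT genes were higher for 5 of 5 genes compared in the control (summed log2 ratio 0.21, 0.14 to 0.28) and for 6 of 6 in the CD8-IFNγRKO tumor (0.49, 0.41 to 0.56), beside 61% and 61.8% of all genes compared.

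Several lists departed from equality in 1 genotype more than in the other, and the difference was not tested. Immediate early genes, which answer to fresh signals or to cell handling, had a log2 ratio of 0.05 (0.02 to 0.09) in the control and 0.42 (0.39 to 0.45) in the CD8-IFNγRKO tumor. Of the 14 genes compared, 13 were higher in the control and all 14 in the CD8-IFNγRKO tumor, beside 61% and 61.8% of all genes. Stem and naive markers had 0.05 (-0.04 to 0.14) and 0.43 (0.36 to 0.50). Of the genes compared, 4 of 5 and 6 of 8 were higher, beside 61% and 61.8% of all genes, so these counts say little. Klf2, a transcription factor of quiescent and recirculating T cells, was at 226 against 201 CPM in the control and at 689 against 345 CPM in the CD8-IFNγRKO tumor, and Il7r, the interleukin 7 receptor gene, at 104 against 71.5 CPM and 114 against 64.6 CPM. Ccr7, a homing receptor for lymph nodes, had opposite directions, at 112 against 83.6 CPM in the control and 57.5 against 97.6 CPM in the CD8-IFNγRKO tumor (log2 ratio -0.75, -1.16 to -0.39). Ltb, the lymphotoxin beta gene, had log2 ratios of -0.18 and -0.13. Both lists were higher just above the limit than below it: stem and naive markers summed to 1559 CPM at 1500 to 1999 UMIs and 2141 CPM at 2000 to 2999 UMIs in the control, and to 1762 and 2586 CPM in the CD8-IFNγRKO tumor. Immediate early genes summed to 9212 and 10947 CPM in these bins of the control, and to 7769 and 9410 CPM in the CD8-IFNγRKO tumor.

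Marker lists of other cell types took few UMIs, but those of melanoma and erythroid cells were higher in control shallow barcodes than in thinned cells. The 16 macrophage and dendritic markers summed to 301 CPM in control shallow barcodes, below the 382 CPM of thinned cells, and to 287 against 285 CPM in the CD8-IFNγRKO tumor. Most of these UMIs were Cst3, with 172 of 270 and 202 of 304. Of the 16 markers, 11 had UMIs in the control and 10 in the CD8-IFNγRKO tumor. C1qb, Csf1r, Adgre1 and Mrc1 were at 0 in both, while C1qc had UMIs in the control and C1qa in the CD8-IFNγRKO tumor. In the control, 36 shallow barcodes held 2 or more of these UMIs, up to 14 in a single barcode, beside 397 of 6298 thinned cells. For CD8-IFNγRKO it was 57 shallow barcodes, with at most 5, beside 614 of 7971 thinned cells. Melanoma markers reached 21.2 CPM (19 UMIs, 9 of them Pmel and 9 in a single barcode) in the control, against 6.15 CPM in thinned cells (log2 ratio 1.63, 0.92 to 2.59), and 2.83 against 3.16 CPM in the CD8-IFNγRKO tumor, with Sox10 at 0 in both. Tyr was at 0 as well, which says little, since the methods of the study give the engrafted line as Tyr-/-. Erythroid markers had 25 UMIs in the control, at most 2 per barcode and mostly the globin gene Hbb-bs, against 1 UMI in all 6298 thinned cells, and 0 in the CD8-IFNγRKO tumor, where 3 UMIs would be 2.83 CPM. B cell, CD4 T, γδ T, neutrophil, platelet and stromal marker lists were at or below 49.0 CPM each, and NK cell markers, which share genes with activated CD8 T cells, at 74.6 and 113 CPM. Without barcodes holding 2 or more UMIs of other cell types, the histone log2 ratios were 1.38 and 1.16.

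For most lists the shallow barcodes varied less among themselves than the thinned cells did. The dispersion index, the variance of a list's share between barcodes divided by that expected from counting (1 for counting alone), was 6.62 for histones in control shallow barcodes and 11.4 in thinned cells, and 8.10 and 12.8 in the CD8-IFNγRKO tumor. For cytotoxic effectors it was 2.55 against 4.85 and 2.69 against 7.74, and for G2 and M phase genes 2.85 against 7.22 and 3.06 against 8.30. Immediate early genes went the other way, with 4.38 against 4.19 and 9.54 against 5.33, as did nuclear-retained RNA, with 2.72 against 2.16 and 3.03 against 2.77. So did, in 1 library each, rRNA repeat genes (21.3 against 14.4, control), mitochondrial genes (2.53 against 2.30, control) and stem and naive markers (5.28 against 4.12, CD8-IFNγRKO). The histone share of control shallow barcodes had quartiles of 0.310% and 1.08% of their UMIs (median 0.719%), and that of thinned cells 0% and 0.270% (median 0.101%). These middle ranges did not overlap, but the full ranges did, from 0% to 4.20% and from 0% to 4.72%. Shallow barcodes also showed a few more genes, with a median of 669.5 against 631 in the control and 976 against 911 in the CD8-IFNγRKO tumor.

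Barcodes below 2000 UMIs that lacked at least 1 of the 3 T cell genes of the rule had similar levels of the same lists. In the control tumor, 3213 barcodes below 2000 UMIs met every other condition but lacked at least 1 of Cd2, Cd8a and Cd8b1; their histone level was 7679 CPM, nuclear-retained RNA 3963 CPM, rRNA repeat genes 30429 CPM and ribosomal proteins 163014 CPM. The 1677 such barcodes of the CD8-IFNγRKO tumor held 11281, 3149, 25108 and 163215 CPM of the same lists, in that order. Gene by gene, with the 3 genes set aside, 0% of 3390 genes were at least 2-fold higher in the control shallow set than in the barcodes left out and 0.206% were at least 2-fold lower, and 0.029% of 3447 genes in each direction for the CD8-IFNγRKO tumor. The 7 lower genes of the control were Pmel, Tyrp1, Dct and Gpnmb, all made by pigment cells, and Ckb, Fabp5 and Fnbp4; in the CD8-IFNγRKO tumor the globin gene Hbb-bs was lower and Trbv15 higher. These were named after their values had been seen.

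Shallow barcodes of the LN libraries, chosen by the same rule, also had less ribosomal protein mRNA than thinned cells, and a smaller histone difference. They numbered 344 of 6658 in the control and 100 of 6754 in the CD8-IFNγRKO LN. Histones were at 1239 against 844 CPM in the control (log2 ratio 0.55, 0.42 to 0.68) and at 999 against 863 CPM in the CD8-IFNγRKO LN (0.21, -0.02 to 0.44). Nuclear-retained RNA had log2 ratios of 0.32 and 0.35, and ribosomal proteins -0.17 and -0.21. The rRNA repeat genes were higher in the control LN (0.60, 0.57 to 0.62) and lower in the CD8-IFNγRKO LN (-0.12, -0.16 to -0.07), the latter opposite to both tumors. Genes at least 2-fold higher amounted to 0.384% of 3124 in the control LN, with 1 histone among 12, and 0.032% were at least 2-fold lower. Genes at least 2-fold higher in the CD8-IFNγRKO LN came to 3.73% of 3240, with 0 histones among 121, and 1.73% were at least 2-fold lower, where the small number of barcodes makes single genes imprecise. Only 5 histone genes in the control LN and 3 in the CD8-IFNγRKO LN were abundant enough to compare, so these histone counts say little.

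Between genotypes, the target gene differed in shallow barcodes and in deeper cells alike, by unequal amounts. Ifngr1 (ENSMUSG00000020009), the gene targeted by the floxed allele, was at 901 CPM (840 to 965) in control and 429 CPM (390 to 470) in CD8-IFNγRKO shallow barcodes, a log2 ratio of -1.07 (-1.24 to -0.90). In thinned deeper cells it was at 820 CPM (798 to 841) and 272 CPM (263 to 281), a log2 ratio of -1.59 (-1.65 to -1.53), so the CD8-IFNγRKO shallow barcodes held more Ifngr1 RNA than their deeper cells. Ifngr2, the gene of the other receptor chain, had 0 UMIs in the control and 4 in the CD8-IFNγRKO shallow barcodes. Histones were higher in the CD8-IFNγRKO tumor both in shallow barcodes (log2 ratio 0.51, 0.47 to 0.55) and in thinned cells (0.67, 0.64 to 0.69). The shallow barcodes of the CD8-IFNγRKO tumor were the deeper of both sets, so depth differed along with genotype. Among barcodes below 1000 UMIs, few of them CD8-IFNγRKO, the log2 ratios between genotypes were -1.05 for Ifngr1 and 0.37 for histones. For other genes the part of depth was not tested.

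Of 3172 genes compared between genotypes within the shallow barcodes, 1.13% were at least 2-fold higher and 0.914% at least 2-fold lower in CD8-IFNγRKO; within thinned cells the shares were 1.23% and 0.871% of 3100 genes. TCR variable segments were left out of the naming; 5 of them were at least 2-fold higher and 5 at least 2-fold lower in CD8-IFNγRKO shallow barcodes. Among the other genes, Hspa1a, an inducible Hsp70 gene, was at 1041 CPM in CD8-IFNγRKO and 256 CPM in control shallow barcodes, a log2 ratio of 2.02 (1.82 to 2.23), and at 832 and 199 CPM in thinned cells, a log2 ratio of 2.06. Hspa1b, Klf2, Xcl1 and Ifi208 followed, with log2 ratios of 1.84, 1.60, 1.59 and 1.51. Klf2 differed less between the thinned cells, by 0.77. The lowest outside the TCR segments were the granzyme genes Gzmd and Gzme, the growth factor gene Areg, the osteopontin gene Spp1 and Ifitm1. Gzmd was at 20.7 CPM in CD8-IFNγRKO and 246 CPM in control shallow barcodes, a log2 ratio of -3.51 (-4.27 to -2.93), against -2.73 in thinned cells. Areg, Gzme, Spp1 and Ifitm1 had log2 ratios of -3.48, -2.88, -2.46 and -2.15.

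TCR chains were recovered from far fewer shallow barcodes than deeper cells. Here the deeper cells were taken at full depth, without thinning, so depth differed between the sides. A productive TRA and TRB pair was found in 13.5% (109 of 808; 11.2 to 16.0) of the control shallow barcodes and 66.3% (65.1 to 67.5) of deeper cells, and in 19.3% (129 of 667; 16.4 to 22.5) and 72.9% (71.9 to 73.8) in the CD8-IFNγRKO tumor. With at least 3 UMIs required of each chain, the paired shares of shallow barcodes were 5.57% in the control and 5.40% in the CD8-IFNγRKO tumor. At least 1 chain was found in 25.5% and 30.7% of shallow barcodes. The TRB contig of a shallow barcode rested on a median of 4 UMIs in both libraries, against 14 and 17 in deeper cells. Within the control shallow barcodes the paired share went up with depth, from 1.83% of 109 barcodes at 500 to 749 UMIs to 40.7% of 140 at 1500 to 1999 UMIs. For CD8-IFNγRKO it was 23.9% of 159 barcodes at 1000 to 1499 UMIs and 18.3% of 460 at 1500 to 1999 UMIs, with intervals that overlap.

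**Figure D5:**
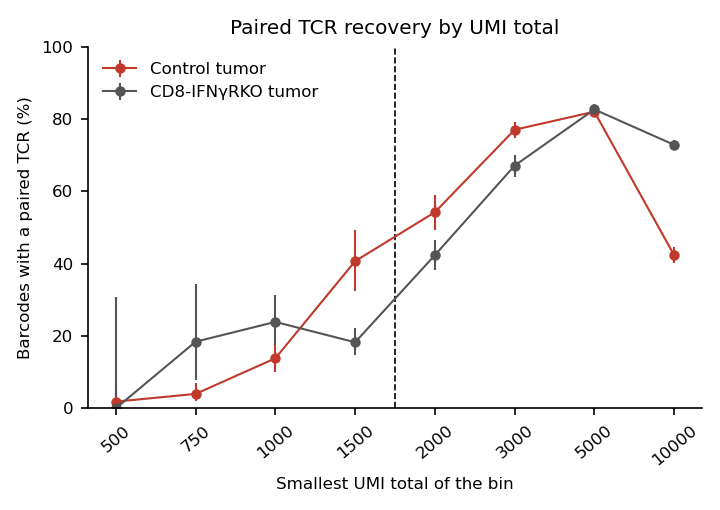
Share of barcodes with a productive TRA and TRB pair in bins of the UMI total, each named by its smallest total; bars are 95% exact binomial intervals and the dashed line is the limit of 2000 UMIs. The control share goes from 1.83% in the shallowest bin to 82.1% at 5000 to 9999 UMIs and is 42.4% in the deepest cells; in the CD8-IFNγRKO tumor the shallowest bin holds 10 barcodes, the shares at 750 to 1999 UMIs lie between 18.3% and 23.9%, and that at 5000 to 9999 UMIs is 82.7%.

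The RNA libraries count V segments too, which allows a check on foreign TCR RNA within a barcode. Among barcodes with 1 TRB contig, 82.9% (79.9 to 85.6) of the TRB V segment UMIs in the RNA library belonged to the V segment of that contig in control shallow barcodes, and 89.6% (89.0 to 90.2) in thinned cells. CD8-IFNγRKO shares were 84.6% (81.2 to 87.7) and 90.2% (89.7 to 90.7). For TRA the control shares were 77.4% (70.8 to 83.1) and 81.7% (80.4 to 82.9), but in the CD8-IFNγRKO tumor the thinned cells were lower, at 65.3% (63.8 to 66.8) against 77.0% (70.7 to 82.6). Only barcodes that yielded a contig enter these shares, and V segments with no gene of the same name in the RNA table were left out.

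Shallow barcodes with a pair were compared with the clones of the deeper cells of the same library, a clone being the V and J segments and the nucleotide sequence of the complementarity-determining region 3 (CDR3) of both chains. In the CD8-IFNγRKO tumor the clones ranked 3, 4 and 9 had the same TRB CDR3 sequence with different TRA chains. There 16.4% of deeper cells with TRA held 2 or more TRA chains, so clones counted apart may belong to 1 lineage. Of 109 control shallow barcodes with a pair, 91.7% (84.9 to 96.2) carried a clone also seen in a deeper cell, where 95.7% (95.1 to 96.3) of deeper cells shared theirs with another deeper cell, and 74.3% (65.1 to 82.2) 1 of the 10 largest clones of the deeper cells, which held 78.1% of the deeper cells themselves. Of 129 in the CD8-IFNγRKO tumor, 79.1% (71.0 to 85.7) carried a clone of a deeper cell, against 94.1% (93.4 to 94.7) for deeper cells, and 45.0% (36.2 to 54.0) 1 of the 10 largest, which held 72.9% (71.7 to 74.0) of the deeper cells. No clone was found in both genotypes, with 0 of 109 and 0 of 129 shallow barcodes, which allows a share of up to 3.33% and 2.82%. The CDR3 sequences of the largest and the second clone of each library, ranked in the deeper cells, are shown. The largest control clone and the second CD8-IFNγRKO clone had smaller shares of the shallow barcodes than of the deeper cells. For the other clones shown, the interval of the shallow share included that of the deeper cells.

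Control, largest clone, TRA: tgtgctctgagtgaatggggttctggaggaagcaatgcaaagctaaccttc
Control, largest clone, TRB: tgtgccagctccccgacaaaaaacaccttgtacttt
Control, second clone, TRA: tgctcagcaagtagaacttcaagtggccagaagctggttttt
Control, second clone, TRB: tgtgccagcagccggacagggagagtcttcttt
CD8-IFNγRKO, largest clone, TRA: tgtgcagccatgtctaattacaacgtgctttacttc
CD8-IFNγRKO, largest clone, TRB: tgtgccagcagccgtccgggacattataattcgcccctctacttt
CD8-IFNγRKO, second clone, TRA: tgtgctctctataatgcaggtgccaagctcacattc
CD8-IFNγRKO, second clone, TRB: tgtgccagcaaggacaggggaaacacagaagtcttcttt

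The sequences are read 5′ to 3′ from the deposited contigs and run in lower case throughout; each opens with the codon of the conserved cysteine. The largest control clone joined TRAV12-3 to TRAJ42 and TRBV12-1 to TRBJ2-4 and made up 11.9% (6.51 to 19.5) of the paired shallow barcodes against 26.1% (24.8 to 27.5) of the paired deeper cells. The second control clone (TRAV5-1 with TRAJ16, TRBV14 with TRBJ1-1) made up 23.9% (16.2 to 33.0) and 23.5% (22.3 to 24.9). In the CD8-IFNγRKO tumor the largest clone (TRAV7D-2 with TRAJ21, TRBV14 with TRBJ1-6) made up 28.7% (21.1 to 37.3) of the paired shallow barcodes and 24.6% (23.5 to 25.7) of deeper cells. The second clone (TRAV12D-3 with TRAJ39, TRBV13-3 with TRBJ1-1) made up 2.33% (0.48 to 6.65) and 20.6% (19.6 to 21.7), or 3 of 129 shallow barcodes.

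Between 1.32% and 2.30% of barcode sequences were shared with any 1 of the other RNA libraries. Of the control shallow barcodes, 1.49% (0.77 to 2.58) were also found among CD8-IFNγRKO tumor barcodes, as were 1.33% (1.07 to 1.65) of the deeper cells. The reverse shares were 1.95% (1.04 to 3.31) and 1.32% (1.08 to 1.59). With the control and the CD8-IFNγRKO LN library, control shallow barcodes shared 1.49% and 2.10% and control deeper cells 2.30% and 1.46%, while CD8-IFNγRKO shallow barcodes shared 1.80% and 1.499% and their deeper cells 1.51% with each.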

How the data were processed

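CD8 T cells of tumors and draining lymph nodes were profiled by 5′ droplet RNA sequencing in 4 libraries, and TCR chains in the 2 tumor libraries. Per the file headers and the methods of the study, the authors made the deposited UMI counts with Cell Ranger 6.0.0 against the mouse reference mm10, and the TCR contig tables hold UMI counts per assembled chain as deposited; 32285 genes were listed and no value had been normalized.

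Barcodes were selected by the rule stated at the opening of the results. Each deeper cell was thinned, without replacement (seed 20), to a total drawn from the shallow barcodes of its library, and UMIs were summed over barcodes. Doublets were not called. Genes with at least 50 CPM on either side and 100 UMIs over both were compared, as log2 ratios after adding 1 CPM, and a log2 ratio of 1 was counted as past the threshold. Intervals (95%) are exact: Poisson for CPM, conditional binomial for ratios and Clopper-Pearson for shares; none of them covers differences between animals, since each library pools 3 mice. Named genes were the 12 with the highest and the 12 with the lowest mean log2 ratio over both tumors, of those with the same sign in both, and 5 each way between genotypes; TCR segments, Cd2, Cd8a, Cd8b1, mitochondrial and ribosomal protein genes, Xist and Y-linked genes were left out of this choice, but genes of the lists could be named with their list. Scripts were tested on simulated data. The members and gene lists were chosen with earlier results of these data known. The position of the floxed segment within Ifngr1 was not analysed here. Calculations were run in Python 3.11.15 with pandas 2.3.3, scipy 1.17.1, numpy 2.4.6 and matplotlib 3.10.9. Alternatives varied the UMI limit, the filter on the 3 T cell genes, the mitochondrial limit, the deeper cells used, the CPM denominator, barcodes with RNA of other cell types and the UMIs required of a TCR chain.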

Additional observations from a re-analysis of the deposited data

Results flagged for a closer look

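Among the lists other than cell type markers, 2 had opposite directions in the 2 tumors, each with a 95% counting interval that excludes equality in both, when shallow barcodes were set against thinned deeper cells. Mitochondrial genes had a log2 ratio of 0.09 in the control and -0.10 in the CD8-IFNγRKO tumor, with 8 of 11 genes compared lower in each, where 39% and 38.2% of all genes compared were lower. The signs were alike without the mitochondrial limit (0.23 and 0.13) and for barcodes below 1000 UMIs (0.03 and 0.25). Chemokines and cytokines had -0.31 in the control and 0.10 in the CD8-IFNγRKO tumor; Ccl5, the most abundant of them, was at 7732 against 9652 CPM and at 4736 against 3924 CPM. The difference between the genotypes was not tested in either case, since each genotype had 1 library.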

How the results depend on the processing

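No paired analysis was possible because each genotype had 1 library per tissue and the labels give no shared replicate numbers; for the same reason no replicate could be left out. All values are given for the control and then the CD8-IFNγRKO tumor. The share of shallow barcodes was 5.43% and 0.556% with a limit of 1000 UMIs, 17.2% and 14.6% with 3000 UMIs, and 36.3% and 20.02% without the filter on Cd2, Cd8a and Cd8b1. The histone log2 ratio was 1.41 and 1.12 for barcodes below 1000 UMIs, 0.64 and 0.83 with a limit of 3000 UMIs, 1.60 and 1.29 when deeper cells had to pass the filter after thinning, 1.296 and 1.13 with CPM without TCR, heat shock, mitochondrial and ribosomal protein genes, and 2.16 and 1.46 against deeper cells of 2000 to 6000 UMIs. Without barcodes holding RNA of other cell types it was 1.16 in the CD8-IFNγRKO tumor. Split by S phase UMIs (none, 1, 2 or more), an alternative chosen after seeing the data, it was 2.25, 2.12 and 0.86 in the control and 0.41, 1.01 and 1.09 in the CD8-IFNγRKO tumor. Genes at least 2-fold higher numbered 92 and 651 below 1000 UMIs (the latter from 48 barcodes), 25 and 71 with 3000 UMIs, and 70 and 76 against deeper cells of 2000 to 6000 UMIs. In the main setting they were 40 of 3291 and 47 of 3345 genes compared. The abundance filter was applied anew in each setting, so the number of genes compared could change. These counts are therefore not shares and cannot be set directly against each other. Paired TCRs were found in 5.57% and 5.40% with at least 3 UMIs per chain, 3.37% and 14.6% below 1000 UMIs, and 8.33% and 14.9% without the 3-gene filter. The histone log2 ratio of CD8-IFNγRKO over control shallow barcodes was 0.37 below 1000 UMIs. Nuclear-retained RNA ranged from 0.31 to 0.74 and from -0.04 to 0.88, rRNA repeat genes from 0.86 to 1.27 and from 0.36 to 1.04, ribosomal proteins from -0.31 to -0.10 and from -0.33 to -0.13 (the smallest differences with a limit of 3000 UMIs), and mitochondrial genes from 0.03 to 0.23 and from -0.16 to 0.25. TCR constant region and CD3 genes ranged from -0.20 to -0.08 and from -0.26 to -0.09. Both were lowest when deeper cells had to pass the filter after thinning. The causes of these shifts were not tested.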

Other observations

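Shallow tumor barcodes with more than 3% mitochondrial UMIs, which the rule leaves out, had another RNA content. The 237 of the control tumor (median 807 UMIs, 6.16% mitochondrial) held 21223 CPM of nuclear-retained RNA and 102795 CPM of rRNA repeat genes, against 4160 and 29043 CPM in the shallow barcodes described above, with 5230 CPM of histones and 124218 CPM of ribosomal proteins. The 330 of the CD8-IFNγRKO tumor (median 911 UMIs, 7.34% mitochondrial) held 15455, 112316, 7464 and 111047 CPM of these lists, in that order. These barcodes were not selected on Cd2, Cd8a and Cd8b1. Genes of the TCR constant regions and CD3 chains, which the rule does not use, were at 3631 and 2969 CPM, against 6235 and 4881 CPM in the shallow barcodes described above and 5667 and 4726 CPM in shallow barcodes that lacked at least 1 of those 3 genes.

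At the other end of the depth range, control tumor cells of 10000 or more UMIs had a paired TCR in 42.4% (40.2 to 44.6) of 2040 barcodes, against 82.1% (80.5 to 83.6) of 2424 at 5000 to 9999 UMIs. The CD8-IFNγRKO values were 72.9% (71.5 to 74.3) of 4025 and 82.7% (81.1 to 84.2) of 2384.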
